A study of Mus musculus with 2 samples.

Results

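The barcodes described here carried, at the same time, the S100 transcripts that mark neutrophils and the C1q transcripts that mark macrophages. A barcode is the tag that a droplet adds to all RNA captured in it, and each captured molecule is counted once by its unique molecular identifier (UMI). Members were the barcodes in which S100a8 and S100a9 together reached 20000 CPM, UMIs scaled to 1000000 per barcode, and C1qa, C1qb and C1qc together reached 1000 CPM. Barcodes were kept with at least 500 genes, under 10% mitochondrial UMIs and a sequence listed in only 1 of the libraries. By this rule 415 of 2985 kept barcodes (13.9%) were members, 167 of 1234 in the Het library and 248 of 1751 in the WT library. The 5 rule genes chose the members, so their values, and all values of the same barcodes set against groups formed by those genes, are descriptions and were not tested.

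The series profiled cells labelled microglia-like, from the central nervous system of mice given blood-forming stem and progenitor cells. The Het library was labelled Cx3cr1-/+ and the WT library Cx3cr1+/+, with 1 library per genotype, so differences between them have no replicate check. Both libraries carried the same protocol: GFP+ and GFP- cells from the lineage-negative (Lin-) pool of Cx3cr1-/+ mice were given by vein to CD45.1 mice, which had received busulfan, a drug that clears marrow stem cells, in 4 doses of 25 mg/kg, at 1 donor to 1 recipient. Which donor cells gave the WT library was not stated, and neither the animals' sex, age and number, nor the time since transplantation, nor the cells that recipients kept of their own were given in the labels used here.

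Neutrophils are short-lived granulocytes that are made in the bone marrow and packed with granules of antimicrobial proteins, and the S100a8 and S100a9 proteins together form calprotectin, an abundant protein of their cytosol. C1q is the recognition unit of the classical complement pathway. Its 3 chains are made by C1qa, C1qb and C1qc, mostly in tissue macrophages, and in the brain microglia and the macrophages of the brain's borders are its main source. A droplet that takes up more than 1 cell, a multiplet, gives 1 barcode with the transcripts of all of them.

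Members were set against 3 groups of kept barcodes of the same library. C1q-low neutrophils passed the S100 threshold with under 1000 CPM of C1q (121 Het and 184 WT barcodes). S100-low C1q barcodes passed the C1q threshold with under 20000 CPM of S100a8 and S100a9 (536 and 658), and the remaining barcodes passed neither (410 and 661). The listed barcodes held 17828344 UMIs in the Het library and 22062823 in the WT library, and members held 27.2% and 28.0% of the UMIs of kept barcodes. A total of 339 barcode sequences were listed in both libraries, and those among them that passed the gene and mitochondrial filter, 255 in the Het library (17.1%) and 198 in the WT library (10.2%), were left out. Cx3cr1, the gene of the genotype label, stood at 763 in Het and 934 CPM in WT members. Which part of Cx3cr1 the allele removes was not given in the sources used here, so this level checks no label. The label of a microglia-like cell covered part of what members held: summed over members, 13 neutrophil core genes reached 12157 in Het and 12393 CPM in WT members and 11 homeostatic microglia genes 3086 in Het and 3492 CPM in WT members.

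Members were 58.0% of all barcodes past the S100 threshold in the Het library (167 of 288, exact 95% Clopper-Pearson interval 52.1% to 63.8%) and 57.4% in the WT library (248 of 432, 52.6% to 62.1%). The share depends on the threshold: with 5000 CPM of C1q in place of 1000 it was 36.8% in the Het library (31.2% to 42.7%) and 33.8% in the WT library (29.3% to 38.5%). All intervals given here cover counting error only. Among barcodes under the S100 threshold, 56.7% of the Het library (53.4% to 59.8%) and 49.9% of the WT library (47.2% to 52.6%) passed the C1q threshold, intervals that overlapped those of the neutrophil barcodes in the Het library and just met them in the WT library. Seen from the other side, members were 23.8% of the Het barcodes past the C1q threshold (20.7% to 27.1%) and 27.4% of the WT ones (24.5% to 30.4%).

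The C1q level of members covered a wide range. It ran from 1016 to 24101 CPM with a median of 6960.1 CPM in the Het library, and from 1034 to 29229 CPM with a median of 6099 CPM in the WT library. The medians of C1q-low neutrophils were 221 and 214 CPM in the Het and WT libraries, above those of the remaining barcodes at 119 and 131 CPM. S100-low C1q barcodes had 17930.2 and 15082 CPM. In UMIs, members held a median of 153 C1q molecules in the Het library and 103.5 in the WT library, against 2 in the C1q-low neutrophils of either library. Few members rested on a handful of molecules: 7 of 167 Het and 13 of 248 WT members had 5 or fewer C1q UMIs, while 100 and 129 had 100 or more. All 3 C1q genes were present in 158 Het and 234 WT members. At the C1q threshold, 4 Het and 7 WT members lay from 1000 to under 1200 CPM, with medians of 5 and 4 C1q UMIs in barcodes of 4612.5 and 3553 UMIs. On the other side, 5 Het and 8 WT neutrophil barcodes lay from 800 to under 1000 CPM, with medians of 9 and 11.5 C1q UMIs in barcodes of 9764 and 14099 UMIs. Few barcodes lay near the S100 threshold, with 2 Het and 8 WT members from 20000 to under 24000 CPM and 3 Het and 6 WT S100-low C1q barcodes from 16000 to under 20000 CPM.

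**Figure D1:**
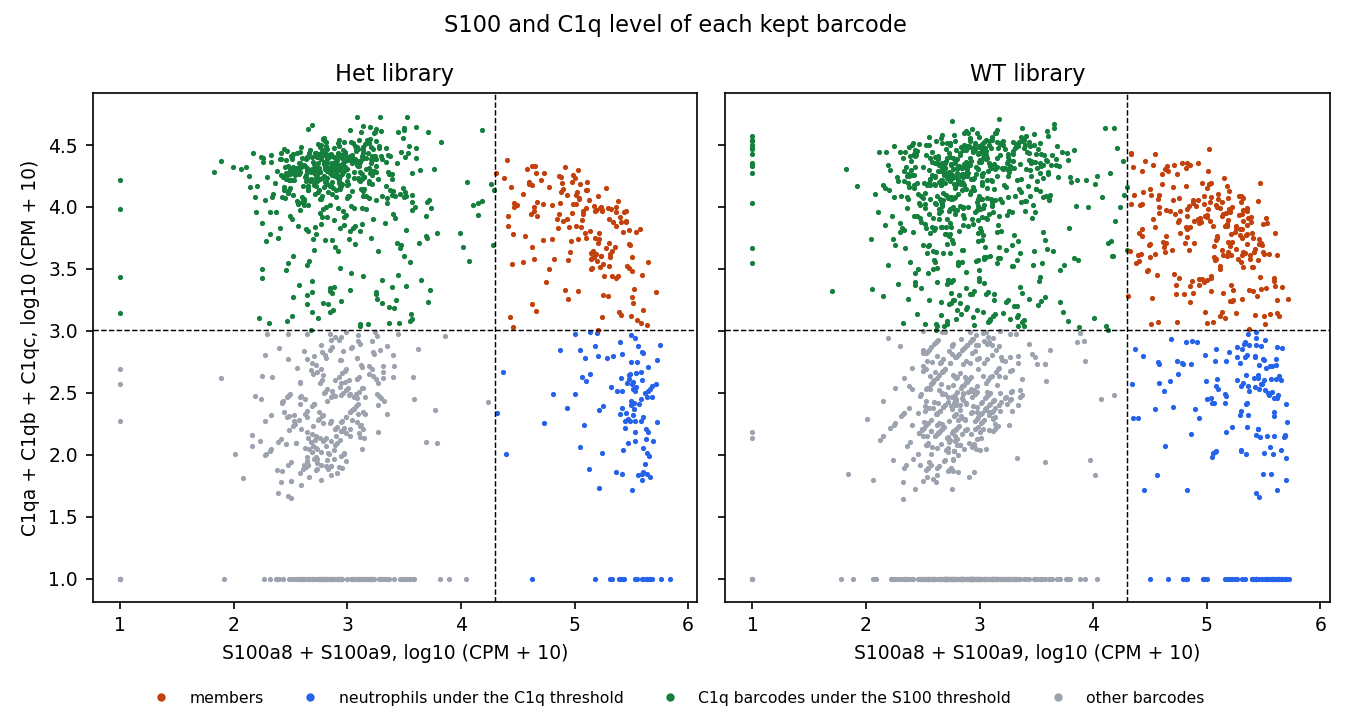
Each point is 1 kept barcode of the Het library (left) or the WT library (right), with its summed S100a8 and S100a9 level on the x axis and its summed C1qa, C1qb and C1qc level on the y axis, both as log10 of CPM + 10. Dashed lines mark the thresholds of 20000 and 1000 CPM; members (167 and 248) fill the upper right corner, C1q-low neutrophils (121 and 184) lie below them, and S100-low C1q barcodes (536 and 658) lie to their left.

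The rule genes lay between both comparison groups. S100a8, the first calprotectin chain (chromosome 3, 90668978 to 90670035, plus strand, GRCm38), had 80056 in Het and 63639 CPM in WT members over their summed UMIs, against 145128 in Het and 112068 CPM in WT C1q-low neutrophils. S100a9, the second chain (chromosome 3, 90692632 to 90695721, minus strand), had 73261 in Het and 61107 CPM in WT members, against 140947 in Het and 112834 CPM in WT C1q-low neutrophils. Per barcode, the S100 level of Het and WT members reached a median of 127255 and 113485 CPM, against 320866 in Het and 250048 CPM in WT C1q-low neutrophils, so a typical member gave a smaller share of its RNA to S100 than a typical C1q-low neutrophil. C1qa, C1qb and C1qc lie within 1 stretch of chromosome 4, on the minus strand from 136880129 (C1qb) to 136898803 (C1qa). C1qa had 2619 in Het and 2438 CPM in WT members, against 5412 in Het and 4383 CPM in WT S100-low C1q barcodes. C1qb had 2921 in Het and 2736 CPM in WT members, against 6349 in Het and 5173 CPM in WT S100-low C1q barcodes, and C1qc had 2219.6 in Het and 2059.9 CPM in WT members, against 4535 in Het and 3732 CPM in WT S100-low C1q barcodes. Each C1q gene thus stood in members at roughly the middle of the scale between C1q-low neutrophils, with 82.5 and 79.4 CPM of C1qa, and S100-low C1q barcodes.

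The median member held more RNA molecules and more genes than the median barcode of any other group. Het members had a median of 20015 (95% interval 17045 to 24575) UMIs, ranging from 772 to 122048, against 11968 (95% interval 8410 to 15952) in C1q-low neutrophils, 7021.5 (95% interval 6248 to 8062) in S100-low C1q barcodes and 7631 in the remaining barcodes. WT members had 16512.5 (95% interval 13844 to 19020) UMIs, ranging from 1013 to 109518, against 10211 (95% interval 9284 to 12051) in C1q-low neutrophils, 5889.5 (95% interval 5332 to 6656) in S100-low C1q barcodes and 6725 in the remaining barcodes. The median of Het and WT members was 1.67 and 1.62 times that of C1q-low neutrophils and 2.85 and 2.80 times that of S100-low C1q barcodes. The medians of those groups added up to 18989.5 UMIs (Het) and 16100.5 (WT), beside 20015 in Het and 16512.5 in WT members. Medians of separate groups need not add up, and for some other measures the sums lay further from the members' medians. For S100a8 plus S100a9 UMIs the sums were 3506 (Het) and 2002 (WT), beside 2460 and 1429.5 in members. For homeostatic microglia UMIs they were 28 (Het) and 22 (WT), beside 48 and 44.5 in members. Nothing is read from these sums. A total of 78 of 167 Het and 104 of 248 WT members lay above the 90th percentile of the UMIs of the kept barcodes that were not members. Even so, 9 Het and 8 WT members had fewer than 2000 UMIs, so a high total was common among members and not universal.

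Members also had the most genes, with a median of 3877 and 3525 in the Het and WT libraries, against 1831 in Het and 2011 in WT C1q-low neutrophils, 2248 in Het and 2018 in WT S100-low C1q barcodes and 2412.5 in Het and 2164 in WT remaining barcodes. After each barcode was thinned at random to 2000 UMIs, Het and WT members showed 907 and 917.5 genes, against 626.5 in Het and 747 in WT C1q-low neutrophils and 972 in Het and 983 in WT S100-low C1q barcodes. Thinning left out 9 Het and 8 WT members, 5 Het and 10 WT C1q-low neutrophils and 71 Het and 121 WT S100-low C1q barcodes with fewer UMIs. At equal depth members were therefore richer in genes than C1q-low neutrophils and close to, though below, S100-low C1q barcodes. Mitochondrial genes took 1.66 and 1.67% of the UMIs of the median Het and WT member, against 0.656% in Het and 0.942% in WT C1q-low neutrophils and 2.55% in Het and 2.60% in WT S100-low C1q barcodes, again an intermediate value. No barcode was removed as a doublet. Scrublet, which scores each barcode against simulated pairs, called 0 members as doublets in either library. Outside the members it called 2 of 658 WT S100-low C1q barcodes and no other kept barcode of either library. Its expected doublet share was 0.987% (Het) and 1.40% (WT), where members were 13.5% and 14.2% of kept barcodes. Its score thresholds were 0.0715 (Het) and 0.0882 (WT). With these settings a count of 0 does not tell how many members held more than 1 cell. Its median score was 0.0180 in Het and 0.0252 in WT members. C1q-low neutrophils had 0.00462 in Het and 0.0142 in WT, and S100-low C1q barcodes 0.00660 in Het and 0.0109 in WT. How much of the result comes from barcodes with more than 1 cell was not tested.

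**Figure D2:**
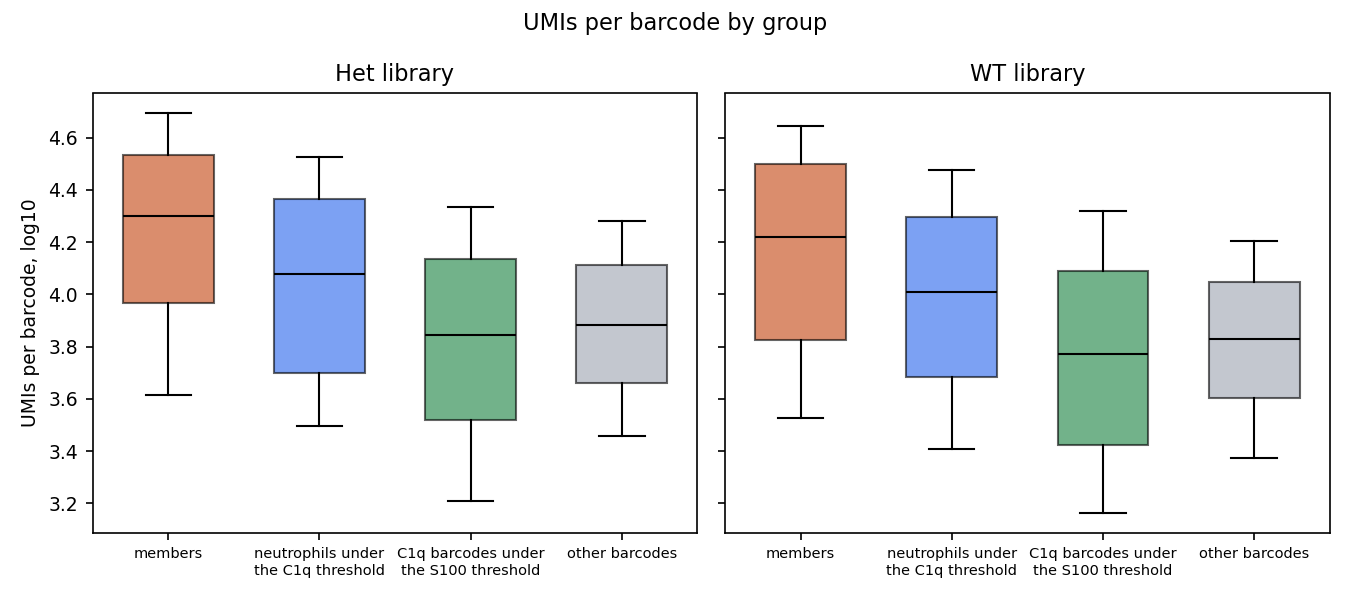
UMIs per barcode (log10) in members, C1q-low neutrophils, S100-low C1q barcodes and the remaining barcodes of the Het library (left) and the WT library (right); boxes span the quartiles, the line is the median and whiskers reach the 10th and 90th percentiles over barcodes. The member medians, 20015 and 16512.5 UMIs, lie above those of every other group.

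Counted in molecules per barcode, members held transcripts of both kinds. The 13 neutrophil core genes gave a median of 232 and 204 UMIs per member in the Het and WT libraries, against 276 per Het and 236.5 per WT C1q-low neutrophil and 2 per S100-low C1q barcode in either library. The 11 secondary and tertiary granule genes gave 142 UMIs per Het and 49.5 per WT member, against 272 per Het and 122 per WT C1q-low neutrophil, and the intervals of the Het medians overlapped (72 to 232 and 119 to 667). The 12 C1q macrophage genes, a list without C1q itself, gave 208 and 126.5 UMIs per Het and WT member, against 7 per Het and 9 per WT C1q-low neutrophil and 200 per Het and 93.5 per WT S100-low C1q barcode. The 11 homeostatic microglia genes gave 48 and 44.5 UMIs per Het and WT member, against 1 per Het and 2 per WT C1q-low neutrophil and 27 per Het and 20 per WT S100-low C1q barcode. Without S100a8 and S100a9, Het and WT members held a median of 18181 and 14021.5 UMIs, against 6807 in Het and 7961 in WT C1q-low neutrophils and 7016 in Het and 5886.5 in WT S100-low C1q barcodes.

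Members held all 13 neutrophil core genes, and 12 of the 13 were lower than in C1q-low neutrophils in both libraries. Values below are CPM of the UMIs summed over a group, and log2 ratios carry exact conditional binomial 95% intervals. The neutrophil core list reached 12157 in Het and 12393 CPM in WT members, against 20271.5 in Het and 20267 CPM in WT C1q-low neutrophils, log2 ratios of -0.74 (-0.76 to -0.72) and -0.71 (-0.73 to -0.69). None of its 13 genes, all of which passed a minimum of 50 UMIs over the groups compared, was 2-fold higher or lower in both libraries with CPM scaling. Among all 9249 genes past that minimum, 12.3% were 2-fold higher in members than in C1q-low neutrophils in both libraries and 0.227% were 2-fold lower, and since the rule used this contrast nothing is read from a count against these shares. Retnlg, a resistin-like secreted protein of mature neutrophils, had 5292 in Het and 5427 CPM in WT members, against 9291 in Het and 10160.2 CPM in WT C1q-low neutrophils. Levels were 51.6 in Het and 85.7 CPM in WT S100-low C1q barcodes. Cxcr2, the chemokine receptor that calls neutrophils out of the marrow and into tissue, had 161 in Het and 179 CPM in WT members, against 214 in Het and 219 CPM in WT C1q-low neutrophils. Levels were 4.15 in Het and 10.9 CPM in WT S100-low C1q barcodes. Both genes were lower in members than in C1q-low neutrophils and far lower in S100-low C1q barcodes. Csf3r, the receptor for granulocyte colony-stimulating factor, had 197 in Het and 225 CPM in WT members, against 167 in Het and 186 CPM in WT C1q-low neutrophils. Levels were 69.4 in Het and 69.97 CPM in WT S100-low C1q barcodes. It was the only gene of the core list with a log2 ratio above 0 in both libraries (0.24 and 0.27). After scaling by trimmed mean of M-values (TMM), which shifts all ratios of members over C1q-low neutrophils by -0.43 in the Het library and -0.25 in the WT library, that of the Het library is below 0, and Retnlg and Wfdc21, a small secreted protein, are past 2-fold lower in both libraries. Mmp9, a gelatinase of tertiary granules, had 343 in Het and 329.8 CPM in WT members, against 586 in Het and 526 CPM in WT C1q-low neutrophils. Levels were 5.73 in Het and 11.8 CPM in WT S100-low C1q barcodes. Il1r2, a decoy receptor for interleukin 1, had 194 in Het and 189 CPM in WT members, against 266 in Het and 247 CPM in WT C1q-low neutrophils. Levels were 12.6 in Het and 19.3 CPM in WT S100-low C1q barcodes.

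Granule genes were lower in members as well. The list of 11 secondary and tertiary granule genes reached 39202 in Het and 26395.5 CPM in WT members, against 72311.5 in Het and 51042 CPM in WT C1q-low neutrophils. Levels were 394 in Het and 522 CPM in WT S100-low C1q barcodes. In the Het and WT libraries the members' granule level was 54.2% and 51.7% of that of C1q-low neutrophils, and for the core list the shares were 60.0% and 61.1%. Camp, which encodes the antimicrobial peptide cathelicidin, had 11784 in Het and 8087 CPM in WT members, against 22034.5 in Het and 15214 CPM in WT C1q-low neutrophils. Ltf, the iron-binding lactoferrin, had 3227 in Het and 2165 CPM in WT members, against 5817 in Het and 4039.8 CPM in WT C1q-low neutrophils, and Lcn2, a lipocalin that binds bacterial siderophores, 6487 in Het and 4512 CPM in WT members, against 11494 in Het and 8377 CPM in WT C1q-low neutrophils. These genes were lower in members by less than 2-fold with CPM scaling. Fcnb, a ficolin that recognises sugars on microbes, was the 1 secondary or tertiary granule gene 2-fold lower in both libraries, with 77.3 in Het and 44.1 CPM in WT members, against 183 in Het and 133 CPM in WT C1q-low neutrophils. After TMM scaling 9 of the 11 were 2-fold lower in both libraries, so that count rests on the scaling. Of the primary granule genes, which neutrophil precursors make first, 3 of 4 passed the minimum. Elane, neutrophil elastase, was 2-fold lower in both libraries (4.43 in Het and 26.3 CPM in WT members, against 21.97 in Het and 58.9 CPM in WT C1q-low neutrophils). After TMM scaling so was Prtn3, another primary granule gene. The stefins, a family of cysteine protease inhibitors whose near-identical copies may share reads, summed to 377 in Het and 413 CPM in WT members, against 529 in Het and 534 CPM in WT C1q-low neutrophils. Levels were 4.94 in Het and 15.02 CPM in WT S100-low C1q barcodes.

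Against S100-low C1q barcodes, the same genes set members apart. All 13 core genes, all 11 secondary and tertiary granule genes, all 4 measured stefins and both primary granule genes that passed the minimum were 2-fold higher in members in both libraries. Over all 10519 genes past the minimum in that comparison, 3.36% were 2-fold higher and 2.17% were 2-fold lower in both libraries, and the rule used this contrast too. The core list had log2 ratios of 4.60 (4.54 to 4.65) and 3.85 (3.81 to 3.89) for members over S100-low C1q barcodes. Those barcodes held a median of 6 S100a8 and S100a9 UMIs in the Het library and 5 in the WT library, and 21 of 536 and 40 of 658 reached 5000 CPM.

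All 12 C1q macrophage genes were higher in members than in C1q-low neutrophils. The C1q macrophage list reached 16424 in Het and 11984 CPM in WT members, against 1216 in Het and 1212 CPM in WT C1q-low neutrophils. Levels were 39770.1 in Het and 21139 CPM in WT S100-low C1q barcodes. Its log2 ratios of members over C1q-low neutrophils were 3.76 (3.70 to 3.82) and 3.31 (3.25 to 3.36), and all 12 genes were 2-fold higher in both libraries (11 of 12 after TMM scaling). Apoe, a carrier of cholesterol between cells, had 10813 in Het and 6426 CPM in WT members, against 474 in Het and 372 CPM in WT C1q-low neutrophils. Levels were 28899 in Het and 11876 CPM in WT S100-low C1q barcodes. Mertk, a receptor by which macrophages bind dying cells for engulfment, had 115 in Het and 86.8 CPM in WT members, against 2.14 in Het and 3.04 CPM in WT C1q-low neutrophils. Levels were 188 in Het and 143 CPM in WT S100-low C1q barcodes. Both were lowest in C1q-low neutrophils and highest in S100-low C1q barcodes. Csf1r, the receptor for the macrophage growth factor CSF-1, had 691 in Het and 715 CPM in WT members, against 171 in Het and 246 CPM in WT C1q-low neutrophils. Levels were 1084 in Het and 1042 CPM in WT S100-low C1q barcodes. Trem2, a lipid-sensing receptor of microglia and other macrophages, had 543 in Het and 515 CPM in WT members, against 31.6 in Het and 32.7 CPM in WT C1q-low neutrophils. Levels were 1170.2 in Het and 802 CPM in WT S100-low C1q barcodes. None of the 12 genes was 2-fold lower in members than in S100-low C1q barcodes in both libraries, and the list stood at 41.3% and 56.7% of its level there in the Het and WT libraries.

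Homeostatic genes, those of resting microglia, were higher in members than in C1q-low neutrophils too. All 11 homeostatic microglia genes were 2-fold higher in members than in C1q-low neutrophils in both libraries, and the list reached 3086 in Het and 3492 CPM in WT members, against 212 in Het and 296 CPM in WT C1q-low neutrophils. Levels were 5109 in Het and 4993 CPM in WT S100-low C1q barcodes. Tmem119, a membrane protein that marks microglia, had 238 in Het and 243 CPM in WT members, against 6.43 in Het and 11.4 CPM in WT C1q-low neutrophils. Levels were 409.9 in Het and 385 CPM in WT S100-low C1q barcodes. P2ry12, the purine receptor that steers microglial processes, had 265 in Het and 331 CPM in WT members, against 21.4 in Het and 20.5 CPM in WT C1q-low neutrophils. Levels were 406 in Het and 484 CPM in WT S100-low C1q barcodes. Sall1, a transcription factor of microglia, had 25.9 in Het and 29.4 CPM in WT members, against 2.68 in Het and 1.90 CPM in WT C1q-low neutrophils. Levels were 33.4 in Het and 45.7 CPM in WT S100-low C1q barcodes. In each case members lay nearer to S100-low C1q barcodes than to C1q-low neutrophils. Cx3cr1, the fractalkine receptor, had 763 in Het and 934 CPM in WT members, against 77.2 in Het and 173 CPM in WT C1q-low neutrophils. Levels were 1060.3 in Het and 1111 CPM in WT S100-low C1q barcodes.

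Border macrophage genes and antigen presentation genes stood between the groups as well. Of 9 border macrophage genes, 8 were 2-fold higher in members than in C1q-low neutrophils in both libraries, among them Mrc1, the mannose receptor (127 in Het and 95.6 CPM in WT members, against 9.65 in Het and 9.11 CPM in WT C1q-low neutrophils), and Pf4, a platelet factor also made by border macrophages (334 in Het and 214 CPM in WT members, against 18.2 in Het and 14.8 CPM in WT C1q-low neutrophils). F13a1, a transglutaminase subunit, was the other one, at 75.8 in Het and 96.9 CPM in WT members, against 52.5 in Het and 67.2 CPM in WT C1q-low neutrophils. All 7 MHC class II genes, which present antigen to T cells, were 2-fold higher than in C1q-low neutrophils in both libraries, and 6 of the 7 were 2-fold lower than in S100-low C1q barcodes. Cd74, the chaperone of MHC class II, had 2197 in Het and 2567 CPM in WT members, against 571 in Het and 663 CPM in WT C1q-low neutrophils. Levels were 6417 in Het and 7990.5 CPM in WT S100-low C1q barcodes. H2-Aa, an MHC class II chain, had 581 in Het and 769 CPM in WT members, against 122 in Het and 164 CPM in WT C1q-low neutrophils. Levels were 1586 in Het and 2095 CPM in WT S100-low C1q barcodes. In the Het and WT libraries MHC class II stood at 36.0% and 34.8% of its level in S100-low C1q barcodes, beside 60.4% and 69.9% for homeostatic microglia and 58.7% and 54.9% for border macrophage genes.

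Lysosome and engulfment genes were higher in members than in C1q-low neutrophils. The 12 lysosome genes summed to 9792 in Het and 9566 CPM in WT members, against 2382 in Het and 3019.7 CPM in WT C1q-low neutrophils. Levels were 19642 in Het and 15081 CPM in WT S100-low C1q barcodes. Of the 12, 8 (6 after TMM scaling) were 2-fold higher than in C1q-low neutrophils in both libraries. Ctsd, the protease cathepsin D, had 2116 in Het and 1887 CPM in WT members, against 302 in Het and 297 CPM in WT C1q-low neutrophils. Levels were 4650.0 in Het and 2888 CPM in WT S100-low C1q barcodes. Of 14 engulfment receptors and bridging proteins, 11 passed the minimum and 6 were 2-fold higher than in C1q-low neutrophils in both libraries, with Mertk and Stab1 among them, which other lists hold too. Axl, a receptor related to Mertk, had 67.7 in Het and 43.9 CPM in WT members, against 5.89 in Het and 1.90 CPM in WT C1q-low neutrophils, and Gas6, the bridge between these receptors and dying cells, had 94.6 in Het and 76.7 CPM in WT members, against 11.3 in Het and 3.80 CPM in WT C1q-low neutrophils. Engulfment genes as a list stayed below S100-low C1q barcodes, at 851 in Het and 806 CPM in WT members, against 1454 in Het and 1191 CPM in WT S100-low C1q barcodes. Of 12 measured genes of damage-responding phagocytes, 7 (6 after TMM scaling) were 2-fold higher than in C1q-low neutrophils in both libraries. Spp1, the secreted phosphoprotein osteopontin, had 858 in Het and 398 CPM in WT members, against 26.3 in Het and 12.9 CPM in WT C1q-low neutrophils. Levels were 1905 in Het and 373 CPM in WT S100-low C1q barcodes. Lgals3, a galectin, had 595 in Het and 707 CPM in WT members, against 797 in Het and 921 CPM in WT C1q-low neutrophils and 457 in Het and 580.2 CPM in WT S100-low C1q barcodes, and was lower in members than in C1q-low neutrophils.

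Functions found in both neutrophils and macrophages gave mixed results. The 6 NADPH oxidase genes, whose complex makes superoxide, summed to 4034 in Het and 4097 CPM in WT members, against 5039 in Het and 4824 CPM in WT C1q-low neutrophils and 2853 in Het and 3009.7 CPM in WT S100-low C1q barcodes, and none was 2-fold higher or lower than in C1q-low neutrophils in both libraries. Il1b, the precursor of interleukin 1 beta, had 1338 in Het and 1833 CPM in WT members, against 1319 in Het and 1599.7 CPM in WT C1q-low neutrophils. Levels were 401 in Het and 577 CPM in WT S100-low C1q barcodes. Il1a was the 1 gene of 8 in the interleukin 1 and inflammasome list that was 2-fold higher than in C1q-low neutrophils in both libraries (50.97 in Het and 64.5 CPM in WT members, against 4.29 in Het and 5.70 CPM in WT C1q-low neutrophils). Among 10 chemokine ligands, 6 (4 after TMM scaling) were 2-fold higher than in C1q-low neutrophils in both libraries, including Ccl12, a monocyte attractant (689 in Het and 426 CPM in WT members, against 27.3 in Het and 28.9 CPM in WT C1q-low neutrophils), while Cxcl2, a neutrophil attractant, was similar (4069.5 in Het and 4709 CPM in WT members, against 3933 in Het and 4079.7 CPM in WT C1q-low neutrophils). C5ar1, the receptor for the complement fragment C5a, had 333 in Het and 324 CPM in WT members, against 345 in Het and 326 CPM in WT C1q-low neutrophils. C3ar1, the receptor for the complement fragment C3a, was 2-fold higher in both libraries (94.8 in Het and 64.9 CPM in WT members, against 9.65 in Het and 4.18 CPM in WT C1q-low neutrophils). Of 10 interferon response genes only Bst2 was 2-fold higher in both libraries (418 in Het and 332 CPM in WT members, against 40.2 in Het and 73.7 CPM in WT C1q-low neutrophils). Of 10 immediate early and heat shock genes, which also respond to cell handling, 3 were, and the list reached 12557 in Het and 12866 CPM in WT members, against 6814 in Het and 8386 CPM in WT C1q-low neutrophils. Levels were 14719 in Het and 14842 CPM in WT S100-low C1q barcodes. The 10 cell cycle genes summed to 478 in Het and 364 CPM in WT members, against 421 in Het and 453 CPM in WT C1q-low neutrophils and 433 in Het and 514 CPM in WT S100-low C1q barcodes, and none was past 2-fold in both libraries.

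Monocyte lists in members stood between C1q-low neutrophils and S100-low C1q barcodes, and lists of other cell types were low in members. The 6 classical monocyte genes summed to 1004 in Het and 1205 CPM in WT members, against 1545 in Het and 1722 CPM in WT C1q-low neutrophils, 562 in Het and 1009.8 CPM in WT S100-low C1q barcodes and 2639 in Het and 3035 CPM in WT remaining barcodes. The 6 patrolling monocyte genes summed to 689.7 in Het and 1085 CPM in WT members, against 980.1 in Het and 1393 CPM in WT C1q-low neutrophils. Levels were 510.5 in Het and 946 CPM in WT S100-low C1q barcodes. Natural killer cell genes summed to 8.86 in Het and 37.7 CPM in WT members, against 38.05 in Het and 18.6 CPM in WT C1q-low neutrophils and 1320.5 in Het and 1384 CPM in WT remaining barcodes. In members, T cell genes summed to 3.20 CPM (Het) and 2.02 CPM (WT), B cell genes to 19.5 CPM (Het) and 18.6 CPM (WT), dendritic cell genes to 4.92 CPM (Het) and 14.5 CPM (WT), mast cell or basophil genes to 0.985 CPM (Het) and 0.368 CPM (WT) and platelet genes to 4.92 CPM (Het) and 7.35 CPM (WT). Their endothelial genes summed to 41.9 CPM (Het) and 50.9 CPM (WT), erythroid genes to 59.6 CPM (Het) and 62.1 CPM (WT), choroid plexus genes to 74.9 CPM (Het) and 34.9 CPM (WT), oligodendrocyte genes to 49.2 CPM (Het) and 62.5 CPM (WT), astrocyte genes to 4.43 CPM (Het) and 6.25 CPM (WT) and neuron genes to 1.23 CPM (Het) and 1.29 CPM (WT). Members therefore joined neutrophil and macrophage transcripts, with each of these other lists under 100 CPM. That level does not set members apart, since T cell, neuron and platelet lists were under it in every group. Against C1q-low neutrophils, B cell, platelet and neuron lists were higher in members in both libraries. T cell, oligodendrocyte, endothelial and mast cell or basophil lists were lower in both, and the remaining ones differed in direction between libraries. Of the lists with a shared direction, only the B cell list had intervals without 0 in both libraries. Its log2 ratios were 3.18 (1.77 to 5.09) in Het and 1.09 (0.42 to 1.81) in WT. T cell and neuron intervals spanned 0 in both libraries. Those of the other lists with a shared direction spanned 0 in the Het or the WT library. WT members held 2 mast cell or basophil UMIs, against 1 in WT C1q-low neutrophils.

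**Figure D3:**
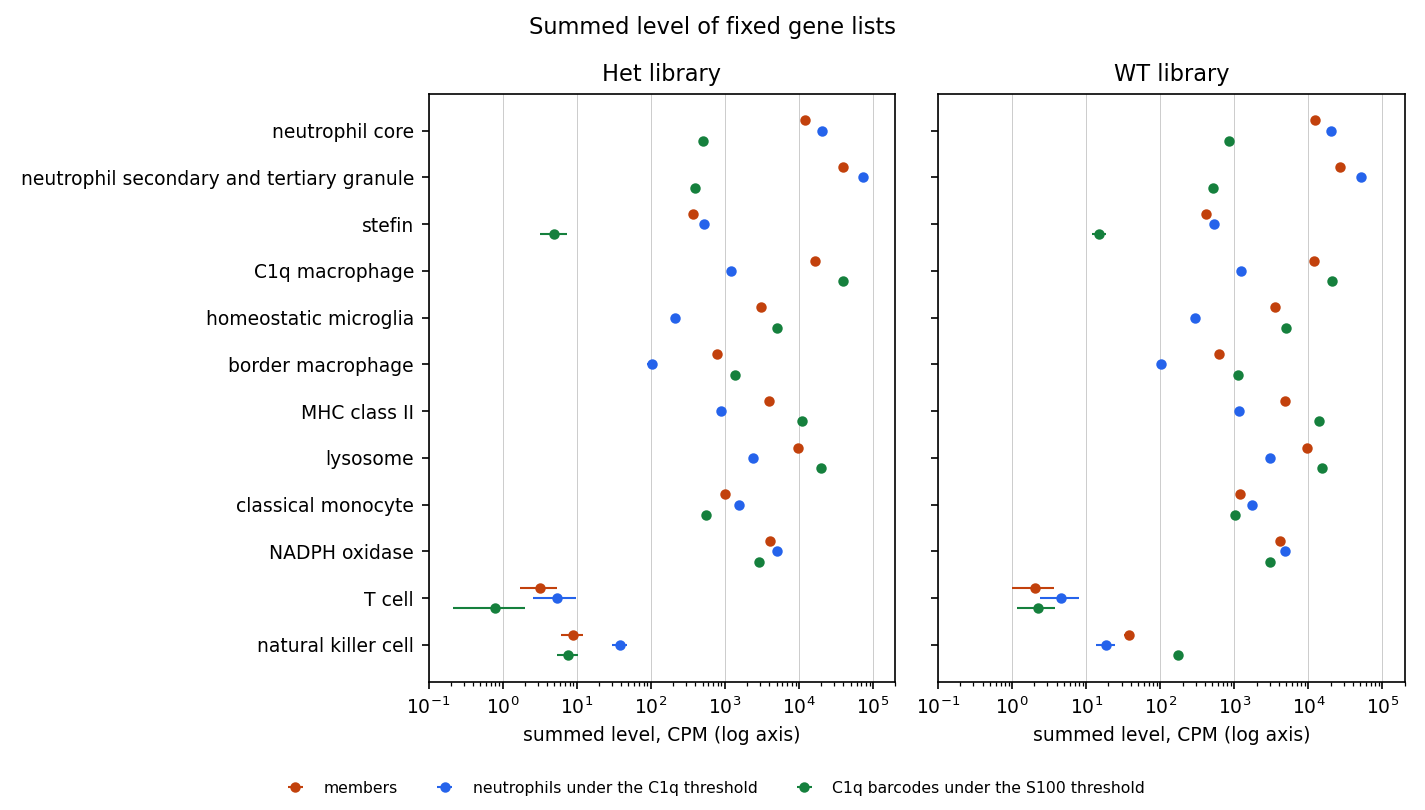
Summed level of 12 gene lists (CPM, log axis) in members, C1q-low neutrophils and S100-low C1q barcodes of the Het library (left) and the WT library (right); bars are exact 95% Poisson intervals and are often narrower than the point. Members lie between the other groups for the neutrophil and macrophage lists, at 12157 and 12393 CPM for neutrophil core and 16424 and 11984 CPM for C1q macrophage genes in the Het and WT libraries.

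Among genes that differed at least 4-fold between the comparison groups, members lay between them almost everywhere. Of 1213 genes at least 4-fold higher in S100-low C1q barcodes than in C1q-low neutrophils in the Het library, with at least 200 UMIs, 1205 had an intermediate level in members, and in the WT library 686 of 692 had. Of 235 and 168 genes at least 4-fold higher in C1q-low neutrophils, 226 and 159 were intermediate. The median gene of the first set stood 49.0% (Het) and 55.5% (WT) of the way, on the CPM scale, along the line that runs from the C1q-low neutrophil level to the S100-low C1q level. For the second set the values were 41.1% and 40.2%. The rule formed the groups, and genes picked for a 4-fold difference leave a wide range between them, so these shares are descriptions. Genes with a smaller difference were not counted. Among them Csf3r and Il1b, given above, stood above both groups in both libraries with CPM scaling. After TMM scaling Il1b is below C1q-low neutrophils in both libraries, and Csf3r in the Het library.

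Many more genes were higher than lower in members against C1q-low neutrophils. A total of 1142 genes were 2-fold higher in both libraries and 21 were 2-fold lower, against 741 and 111 after TMM scaling, and the median log2 ratio of all 9249 genes was 0.46 in the Het library and 0.28 in the WT library. Of the 12 genes with the highest ratios, 6 belonged to the macrophage, microglia and damage-response lists above. The others included Adamts1, a protease of the extracellular matrix (68.9 in Het and 83.5 CPM in WT members, against 0.536 in Het and 2.28 CPM in WT C1q-low neutrophils), Slco2b1, an organic anion transporter (73.9 in Het and 75.6 CPM in WT members, against 3.75 in Het and 3.42 CPM in WT C1q-low neutrophils), Pmepa1, an inhibitor of TGF-beta signalling (447 in Het and 319 CPM in WT members, against 15.004 in Het and 13.3 CPM in WT C1q-low neutrophils), and Bhlhe41, a transcription factor (65.3 in Het and 71.5 CPM in WT members, against 1.61 in Het and 3.42 CPM in WT C1q-low neutrophils). At the low end were 8 genes, led by Olfm4, a glycoprotein of a subset of neutrophils, at 0.492 in Het and 13.1 CPM in WT members, against 74.5 in Het and 104 CPM in WT C1q-low neutrophils. With it came Ms4a3, a gene of granulocyte and monocyte precursors (19.9 in Het and 14.7 CPM in WT members, against 51.4 in Het and 35.3 CPM in WT C1q-low neutrophils), Ceacam10, a cell adhesion molecule (67.96 in Het and 51.1 CPM in WT members, against 140.4 in Het and 109 CPM in WT C1q-low neutrophils), Thbs1, the matrix protein thrombospondin 1 (74.6 in Het and 50.2 CPM in WT members, against 149.5 in Het and 109 CPM in WT C1q-low neutrophils), Fmo5, a flavin-containing monooxygenase (31.8 in Het and 27.02 CPM in WT members, against 75.6 in Het and 58.9 CPM in WT C1q-low neutrophils), Sept1, a septin (18.5 in Het and 14.2 CPM in WT members, against 41.3 in Het and 30.4 CPM in WT C1q-low neutrophils), and the granule genes Fcnb and Elane. Only 2 of 10715 genes (0.0187%) were 1.5-fold higher in members than in both comparison groups in both libraries, and 12 (0.112%) were 1.5-fold lower than both.

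Ratios between transcripts of the C1q and S100 programmes were near those of the group that carries the programme for some genes and apart from them for others. C1qa, C1qb and C1qc made up 33.8%, 37.6% and 28.6% of the C1q UMIs of Het members, against 33.2%, 39.0% and 27.8% in those of the S100-low C1q barcodes of that library. They made up 33.7%, 37.8% and 28.5% of those of WT members, against 33.0%, 38.9% and 28.1% in those of the S100-low C1q barcodes of the WT library. Per 100 C1q UMIs, Het and WT members held 6.9998 and 7.13 Trem2 UMIs, against 7.18 in Het and 6.04 in WT S100-low C1q barcodes, a difference of less than 1.2-fold. Apoe gave 139 and 88.8 UMIs per 100 C1q UMIs in members, against 177 in Het and 89.4 in WT S100-low C1q barcodes, and Cd74 28.3 in Het and 35.5 in WT members, against 39.4 in Het and 60.1 in WT S100-low C1q barcodes, so members had fewer Cd74 molecules for the C1q they carried. Cx3cr1 and P2ry12 went the other way, with 9.83 in Het and 12.9 Cx3cr1 UMIs in WT members, against 6.51 in Het and 8.36 in WT S100-low C1q barcodes, and 3.42 and 4.58 P2ry12 UMIs, against 2.49 in Het and 3.65 in WT S100-low C1q barcodes. On the neutrophil side, members held 76.9 and 64.8 Camp UMIs per 1000 UMIs of S100a8 and S100a9, against 77.02 in Het and 67.6 in WT C1q-low neutrophils. For Lcn2 the values were 42.3 in Het and 36.2 in WT members, against 40.2 in Het and 37.2 in WT C1q-low neutrophils, and for Retnlg 34.5 in Het and 43.5 in WT members, against 32.5 in Het and 45.2 in WT C1q-low neutrophils. Csf3r and Cxcr2 lay further apart, with 1.28 and 1.80 Csf3r UMIs per 1000 in Het and WT members, against 0.584 in Het and 0.829 in WT C1q-low neutrophils. For Cxcr2 the values were 1.05 in Het and 1.44 in WT members, against 0.749 in Het and 0.974 in WT C1q-low neutrophils. S100a8 made up 52.2 and 51.01% of the UMIs of both S100 genes in Het and WT members, against 50.7% in Het and 49.8% in WT C1q-low neutrophils.

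Along the C1q level the macrophage lists were higher from bin to bin, on both sides of the threshold. All neutrophil barcodes of a library, members and C1q-low neutrophils alike, were put into 6 bins of C1q level: 0, above 0 to under 500, 500 to under 1000, 1000 to under 3000, 3000 to under 10000, and 10000 CPM or more. In the Het library the bins held 20, 79, 22, 28, 89 and 50 barcodes, and their C1q macrophage lists summed to 500.2, 1235, 1437, 3247, 12941 and 31725 CPM. In the WT library they held 49, 92, 43, 56, 127 and 65 barcodes, with 630.3, 1114, 1871, 3691, 10641 and 22834 CPM. Each bin was above the one before in both libraries, although the list does not hold the C1q genes that formed the bins. Homeostatic microglia genes ran through 83.4, 175, 442, 792, 2668 and 5228 CPM in the Het library and 156, 246, 528, 1525, 2862 and 7004 CPM in the WT library. Neutrophil core genes ran through 39866, 18579, 19726, 18118, 11412 and 11658 CPM in the Het library and 30899.7, 17944, 19894, 15829.7, 12008.5 and 10735 CPM in the WT library. The core list was thus lower in the top bins than in the bin without C1q, by a far smaller factor than the macrophage list was higher. The median barcode of the bins held 4843, 16681, 7003.5, 8478, 26864 and 19752.5 UMIs in the Het library and 4993, 14563.5, 8572, 11499.5, 19485 and 14629 UMIs in the WT library, so depth differed between bins, and its part in the neutrophil values was not tested. Granule genes ran through 51659, 77176, 58484, 75773, 45206 and 6870 CPM in the Het library and 65761, 55102, 29860.5, 29902, 31147.5 and 9194 CPM in the WT library, with their lowest value in the top bin.

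**Figure D4:**
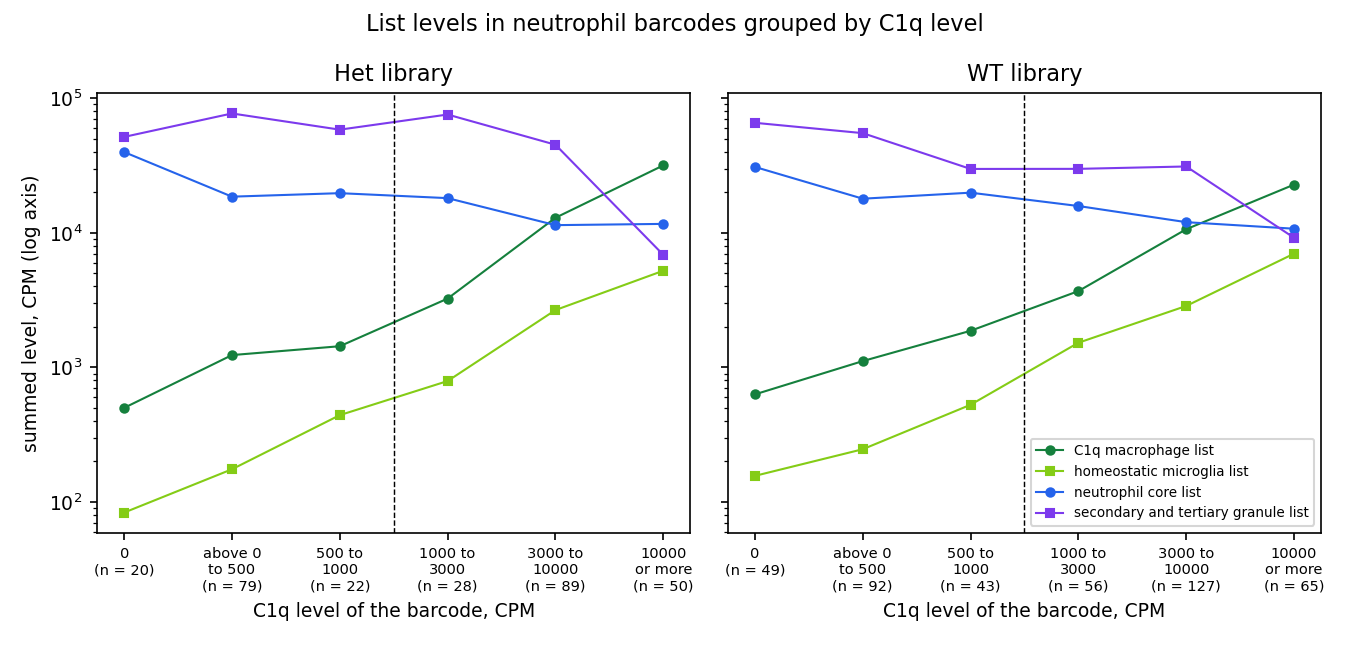
Summed level (CPM, log axis) of 4 gene lists in neutrophil barcodes grouped by their own C1q level, in the Het library (left) and the WT library (right); the dashed line marks the member threshold of 1000 CPM, members lie right of it, and n is the number of barcodes in a bin. The C1q macrophage list reaches 31725 and 22834 CPM in the top bins, and the secondary and tertiary granule list is lowest there.

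The same relation held barcode by barcode among members. Spearman's rho of C1q CPM with C1q macrophage list CPM was 0.70 over 167 Het members and 0.79 over 248 WT members. With S100a8 and S100a9 CPM it was -0.44 and -0.30, with the granule list -0.45 and -0.32, with the core list -0.18 and -0.25, and with total UMIs 0.08 and 0.08. Barcodes of 1 library share its depth and free RNA, and CPM values of 1 barcode share a denominator, so these are descriptions. The C1q level of a member thus bore little relation to how many UMIs it held.

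At equal depth, both genes of 1 pair of receptors were present together in a larger share of members than of the other groups. Neither gene of that pair was confined to 1 kind of barcode. After thinning to 2000 UMIs, Csf1r and Csf3r were both present in 22.8% of Het and 25.4% of WT members, against 6.90% of Het and 10.9% of WT C1q-low neutrophils, 10.97% of Het and 9.87% of WT S100-low C1q barcodes and 4.39% of Het and 5.07% of WT remaining barcodes. Without thinning the shares were 79.04% of Het and 79.03% of WT members, against 41.3% of Het and 50.5% of WT C1q-low neutrophils, 31.9% of Het and 31.9% of WT S100-low C1q barcodes and 20% of Het and 21.6% of WT remaining barcodes, at the unequal depths given above. Csf3r alone was present in 34.2% of Het and 38.3% of WT thinned members, against 34.5% of Het and 36.8% of WT C1q-low neutrophils and 13.3% of Het and 10.6% of WT S100-low C1q barcodes, so it was not confined to neutrophil barcodes. Csf1r alone was present in 65.2% of Het and 66.25% of WT thinned members. It was also present in 16.4% of Het and 35.6% of WT C1q-low neutrophils. In the remaining barcodes its shares were 40.1% (Het) and 50.2% (WT), so it was not confined to C1q barcodes. Ms4a7, a membrane protein of macrophages, was present in 30.4% of Het and 18.8% of WT thinned members, against 1.72% of Het and 0.575% of WT C1q-low neutrophils, which should lack it, and 47.5% of Het and 26.1% of WT S100-low C1q barcodes. P2ry12 was present in 32.3% of Het and 40.4% of WT members, against 6.90% of Het and 4.02% of WT C1q-low neutrophils and 41.7% of Het and 45.3% of WT S100-low C1q barcodes. Member shares of both genes lay well above the shares in neutrophils and somewhat below those of S100-low C1q barcodes. Ly6g, a surface protein of neutrophils, was present in 20.9% of Het and 25.8% of WT thinned members, against 50% of Het and 42.5% of WT C1q-low neutrophils. In S100-low C1q barcodes, which should lack it, Ly6g was present in 0 of 465 Het barcodes, which allows a share of up to 0.645%, and in 0.372% of WT barcodes. Cxcr2 was present in 31.01% of Het and 34.2% of WT members, against 43.97% of Het and 42.5% of WT C1q-low neutrophils and 0.860% of Het and 0.745% of WT S100-low C1q barcodes. Unthinned, Ly6g was present in 67.1% of Het and 65.3% of WT members, against 1.12% of Het and 1.22% of WT S100-low C1q barcodes, and Ms4a7 in 59.3% of Het and 42.3% of WT members, against 10.7% of Het and 8.70% of WT C1q-low neutrophils.

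Sex-chromosome transcripts gave a measure that the rule did not use. Xist is the RNA that coats the inactive X chromosome in female cells, and Ddx3y, Eif2s3y, Kdm5d and Uty are genes of the Y chromosome. In the WT library both kinds of mark were common: Xist was found in 46.8% of members, 5.43% of C1q-low neutrophils and 27.8% of S100-low C1q barcodes, and a Y-linked gene in 64.5%, 64.7% and 37.4%, at median depths of 16512.5, 10211 and 5889.5 UMIs. The level of Xist over summed UMIs was 223 CPM in WT members, against 10.3 CPM in C1q-low neutrophils and 276 CPM in S100-low C1q barcodes, so C1q-low neutrophils of the WT library were nearly without Xist while C1q barcodes were not. Both marks were found in the same barcode in 82 of 248 WT members (33.1%, 27.2% to 39.3%), against 8 of 184 C1q-low neutrophils (4.35%, 1.90% to 8.39%), 56 of 658 S100-low C1q barcodes (8.51%, 6.49% to 10.9%) and 9 of 661 remaining barcodes (1.36%, 0.624% to 2.57%). The shares depend on depth. Thinned to 2000 UMIs, both marks were found in 11 of 240 WT members (4.58%, 2.31% to 8.05%), against 1 of 174 C1q-low neutrophils (0.575%, 0.0145% to 3.16%), 8 of 537 S100-low C1q barcodes (1.49%, 0.645% to 2.91%) and 2 of 611 remaining barcodes (0.327%, 0.0397% to 1.18%). Thinned to 5000 UMIs, a depth chosen after the data were seen, they were found in 26 of 199 members (13.1%, 8.72% to 18.6%), against 3 of 133 C1q-low neutrophils (2.26%), 23 of 370 S100-low C1q barcodes (6.22%) and 6 of 423 remaining barcodes (1.42%). At each depth members had the highest share in the WT library, although at 2000 UMIs the interval of members overlapped those of C1q-low neutrophils and S100-low C1q barcodes, and at 5000 UMIs that of S100-low C1q barcodes (3.98% to 9.18%). The Het library had almost no Y-linked UMIs, so it could not show such pairs: 1 of 167 members held both marks, and 0 of 158 did at 2000 UMIs, which allows a share of up to 1.90%.

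**Figure D5:**
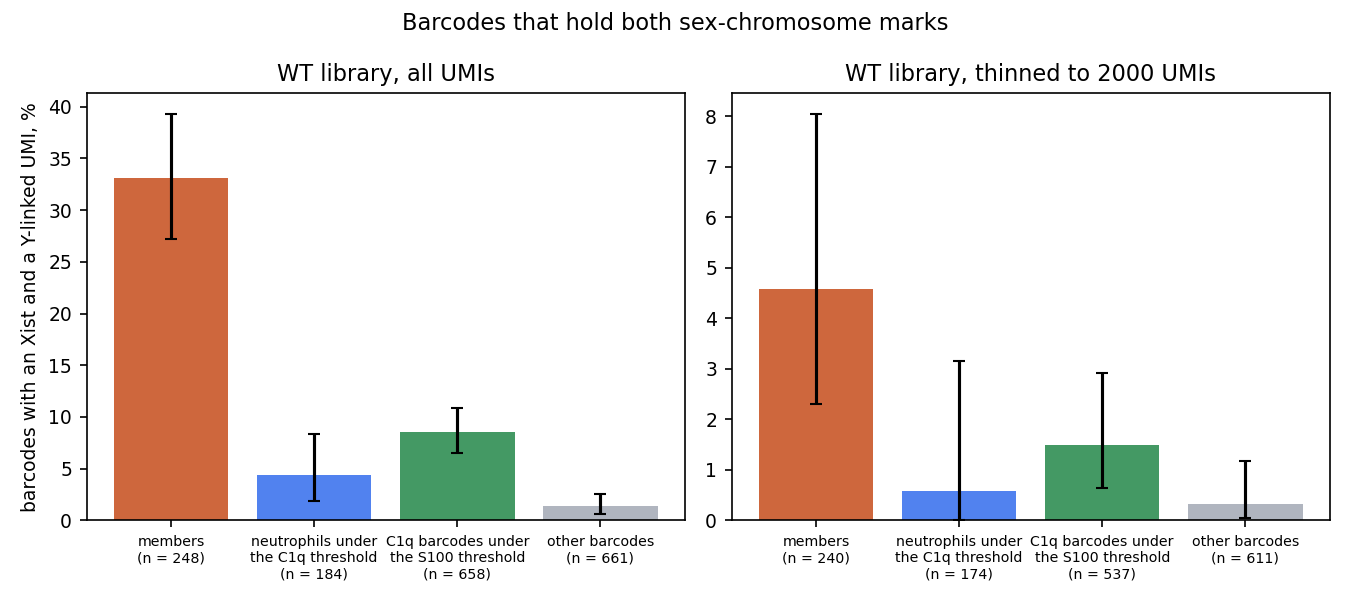
Percent of WT barcodes that held at least 1 Xist UMI and at least 1 UMI of a Y-linked gene, in members, C1q-low neutrophils, S100-low C1q barcodes and the remaining barcodes, with all UMIs (left) and after thinning each barcode to 2000 UMIs (right, own axis); bars are exact 95% intervals. Members have the highest share in both panels, 33.1% and 4.58%.

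Members with both marks had the most UMIs, but the marks were read without thinning, so grouping by them also sorts barcodes by depth. In the WT library the 82 members with both marks had a median of 31761 UMIs, those with Xist alone (34) 16317, those with a Y-linked mark alone (78) 16518, and those with neither (54) 4175. WT S100-low C1q barcodes had the same ends of the order, with a median of 20858 UMIs with both marks and 2897 with neither. Homeostatic microglia genes summed to 4017 CPM in WT members with both marks, 5374 CPM with Xist alone and 1894 CPM with a Y-linked mark alone. The neutrophil core list summed to 10395 CPM with both marks, 12335 CPM with Xist alone and 14302 CPM with a Y-linked mark alone. Whether a mark came from the neutrophil or the macrophage transcripts of a barcode cannot be told apart in these counts.

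Het and WT members were also set against each other. Of 8693 genes with at least 50 UMIs over the members of both libraries, 30 were 2-fold higher in Het members (0.345%) and 46 were 2-fold lower (0.529%), and the median log2 ratio was -0.05. With equal weight per barcode 202 were 2-fold higher and 109 were 2-fold lower, so the counts and their balance depend on how barcodes are weighted. The neutrophil core list differed by a log2 ratio of -0.03 between Het and WT members, and the granule list by 0.57, close to its 0.50 in C1q-low neutrophils. The C1q macrophage list was higher in Het members by 0.45, and by 0.91 in S100-low C1q barcodes. The homeostatic microglia list differed by -0.18 in members and the patrolling monocyte list by -0.65, a list that was also lower in the other groups of the Het library (-0.51 in C1q-low neutrophils and -0.89 in S100-low C1q barcodes).

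Single genes that were 2-fold higher in Het members were Gpnmb, Spp1, Hist1h2ap, Ttr and Cbr2, by the rule for named genes. Gpnmb, a glycoprotein of lipid-laden phagocytes, had 67.2 CPM in Het members, against 21.7 CPM in WT members, a log2 ratio of 1.63 (1.32 to 1.96). In S100-low C1q barcodes it had 241 CPM in the Het library, against 14.7 CPM in the WT library. Spp1 had 858 CPM in Het members, against 398 CPM in WT members, a log2 ratio of 1.11 (1.03 to 1.18), and 1905 CPM, against 373 CPM, in S100-low C1q barcodes. Both genes thus differed in the same direction in barcodes without a high S100 level. Ttr, the transthyretin of the choroid plexus, had 71.4 CPM in Het members, against 33.5 CPM in WT members, and nearly the same in C1q-low neutrophils (71.3 CPM, against 34.6 CPM), a level spread over groups that should lack it. Hist1h2ap, a histone gene, had 241 CPM in Het members, against 86.96 CPM in WT members. Cbr2, a carbonyl reductase of border macrophages, had 29.1 CPM, against 14.2 CPM.

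Lower in Het members were Ccl5, Prtn3, Cd300e and Cxcl3. Prtn3, the primary granule protease proteinase 3, had 31.8 CPM in Het members, against 74.6 CPM in WT members, and 56.8 CPM, against 129 CPM, in C1q-low neutrophils. Cd300e, a receptor of patrolling monocytes, had 46.05 CPM, against 95.4 CPM. Cxcl3, a neutrophil attractant, had 28.6 CPM, against 58.5 CPM. Ccl5, a chemokine of T and natural killer cells, had 7.14 CPM in Het members, against 55.9 CPM in WT members, but 241 of the 304 Ccl5 UMIs of WT members (79.3%) sat in 1 barcode. Cx3cr1 had a log2 ratio of -0.29 (-0.36 to -0.23) between Het and WT members.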

How the data were processed

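Cells of 2 libraries, 1 Het and 1 WT, were profiled with the 10x Genomics 3′ kit v3.1, per the labels' protocols. The values deposited are raw UMI counts for each gene and barcode. They were made against mm10 with Cell Ranger 4.0 per the submitters' processing notes, and with Cell Ranger 5.0.0 per the file headers, and the sources used here do not settle which is right. No listed barcode had under 500 UMIs, and 32285 genes were listed. Clec7a and a stefin of the fixed lists were not analysed here. Gene positions came from GENCODE M21 (GRCm38).

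Barcodes were grouped by the rule given above, UMIs were summed per group and library, and sums were scaled to CPM. The members and the 35 gene lists were chosen with earlier results of these data known. With 1 library per genotype, and groups formed from the readout, no test was made: CPM carry exact Poisson, shares exact Clopper-Pearson, ratios exact conditional binomial and medians order-statistic intervals, at 95%, covering counting error only, since barcodes of 1 library are not replicates. Genes needed 50 UMIs over the groups compared, and called genes were past 2-fold on a ratio with 0.5 UMI added to each sum. Named genes were the rule genes, list genes, and the 12 highest and 12 lowest ratios against C1q-low neutrophils and the 10 highest and 10 lowest between libraries, past 2-fold with a mean of at least 20 CPM, without sex-marker, mitochondrial, ribosomal or predicted genes (fewer passed on most sides). Some list genes are not reported here. The limit for a count of 0 was 3 counts. The computations were checked on simulated counts.

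Tools were Python 3.11.15, numpy 2.4.6, scipy 1.17.1, pandas 2.3.3, Scrublet in scanpy 1.11.5, matplotlib 3.10.9, and edgeR 4.0.16 in R 4.3.3 for TMM factors. Alternatives covered barcode filters, both thresholds, thinning, equal weight per barcode, scaling and the UMI minimum.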

Additional observations from a re-analysis of the deposited data

Results flagged for a closer look

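Lists and genes are given here where the log2 ratio of members over C1q-low neutrophils had opposite signs in the Het and WT libraries. With 1 library each, the difference between the libraries was not tested. The natural killer cell list had -2.10 in the Het library and 1.02 in the WT library. Its gene Gzma, a granule protease of killer cells, had -2.40 and 2.21, with 29 of the 34 UMIs of Het C1q-low neutrophils in 1 barcode and 95 of the 105 UMIs of WT members in 1 barcode. Klrd1, a receptor chain of killer cells, had -2.54 and 3.81, with 7 of the 8 UMIs of Het C1q-low neutrophils in 1 barcode. Cd209a, a lectin of dendritic cells and monocytes, had -1.41 and 3.76, with 30 of the 56 UMIs of WT members in 1 barcode and 9 of the 11 UMIs of Het C1q-low neutrophils in 1 barcode. Ly6c1, whose reads may be shared with its near-identical neighbours, had 2.20 and -3.63, with 24 of the 30 UMIs of Het members in 1 barcode.

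The stefins Stfa2 and Stfa3, close copies of each other, had 1.77 and 2.58 in the Het library and -2.35 and -1.02 in the WT library. Stfa2 had 104 UMIs in 14 Het members and 14 UMIs in 5 Het C1q-low neutrophils, and 45 UMIs in 15 WT members and 111 UMIs in 15 WT C1q-low neutrophils. The cell cycle list had 0.19 in the Het library and -0.31 in the WT library. Top2a, the topoisomerase of dividing cells, had 0.43 and -0.31, Birc5, a mitotic protein, 0.41 and -0.34, and the histone gene Hist1h2ap 0.45 and -0.29. Of the Top2a UMIs of WT C1q-low neutrophils, 68 of 239 were in 1 barcode. Smaller opposite values were found for Cxcl3, with -0.53 in the Het library and 0.37 in the WT library, for Fabp5, a fatty acid binding protein, with 0.32 and -0.35, and for Ms4a4c, a membrane protein of monocytes, with 0.51 and -0.29. Since TMM scaling shifts these ratios by -0.43 in the Het library and -0.25 in the WT library, the Het values between 0 and 0.43 are below 0 under it, as those of the cell cycle list, Birc5 and Fabp5 were.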

How the results depend on the processing

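No paired analysis was possible because each genotype has 1 library and the labels used here gave no pairing of animals or donors. None of the recomputed ratios of the C1q macrophage, homeostatic microglia, neutrophil core and granule lists changed sign. Among the Het ratios over C1q-low neutrophils that TMM put below 0 were those of Csf3r, Il1b, the cell cycle list, Birc5 and Fabp5. The WT ratio of Il1b also fell below 0. Members made up 58.0% of Het and 57.4% of WT neutrophil barcodes, and with C1q thresholds of 500, 2000 and 5000 CPM the shares were 65.6%, 51.7% and 36.8% (Het) and 67.4%, 50.7% and 33.8% (WT). Thinning to 1000 UMIs before the rule gave 67.2% and 66.2%, and thinning to 2000 gave 62.4% in the WT library. The C1q macrophage list ratio of members over C1q-low neutrophils, 3.76 (Het) and 3.31 (WT) on the log2 scale, was 2.43 and 2.41 with the 5000 CPM threshold, 3.62 and 3.10 after thinning to 1000 UMIs, 4.00 and 3.22 with equal weight per barcode and 3.33 and 3.05 with TMM. It was 3.58 in the Het library after thinning to 2000 UMIs, and in the WT library 3.43 and 3.05 with C1q thresholds of 500 and 2000 CPM and 3.25 with an S100 threshold of 40000 CPM. Against C1q barcodes under 2000 CPM of S100, the macrophage list had -1.32 in the Het library, where it had -1.28, and the neutrophil core list 4.86 (Het) and 4.36 (WT), where it had 4.60 and 3.85. The share of WT members with both sex-chromosome marks, 4.58% at 2000 UMIs, was 1.21% at 1000 UMIs, 13.1% at 5000 UMIs and 33.1% without thinning. Genes 2-fold higher and lower than in C1q-low neutrophils, 1142 and 21, numbered 1802 and 86 with a minimum of 10 UMIs, 524 and 9 with 200 UMIs, and 741 and 111 with TMM, an alternative added, as was the depth of 5000 UMIs, after the data were seen. Between Het and WT members, the counts of 30 and 46 became 264 and 292, 6 and 7, and, with equal weight per barcode, 202 and 109, with more genes higher than lower. Among main results recomputed, 55 values stayed within their interval or 1.5 times of their count and 39 did not. Main results were the shares of neutrophil barcodes, ratios of median UMIs, shares with both marks and gene counts. They also held the C1q macrophage list ratios and the core list ratios over S100-low C1q barcodes. For the other lists and values 65 stayed and 61 did not. The share with both marks moved with the depth, the one setting varied for it.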

Other observations

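The 2 genes that were 1.5-fold higher in members than in both comparison groups in both libraries were Iglc1 and Iglc2, constant regions of the antibody light chain. All 51 Iglc1 UMIs of Het members and all 34 of WT members were in 1 barcode of each library, and the 17 and 38 Iglc2 UMIs were in 1 barcode each as well. The 12 genes lower than both groups all had under 20 CPM in every group. Areg, the growth factor amphiregulin, had 0 UMIs in Het members and 8 in WT members, against 9 in Het and 48 in WT C1q-low neutrophils and 34 in Het and 46 in WT S100-low C1q barcodes. Idi1, an enzyme of isoprenoid synthesis, had 8.62 CPM in Het and 8.82 CPM in WT members, against 13.4 CPM in Het and 13.3 CPM in WT C1q-low neutrophils and 14.03 CPM in Het and 19.6 CPM in WT S100-low C1q barcodes. These genes were chosen after their values were seen.

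Among the WT barcodes that passed the C1q threshold without a high S100 level, those with Xist alone differed from those with a Y-linked mark alone. Homeostatic microglia genes summed to 10604 CPM in the 127 with Xist alone and to 1999.65 CPM in the 190 with a Y-linked mark alone, and MHC class II genes to 5647 and 21901 CPM. In members the same lists summed to 5374 CPM and 5232 CPM in the 34 with Xist alone and to 1894 CPM and 3430.5 CPM in the 78 with a Y-linked mark alone. These groups were formed by the marks, after the data were seen, and were not tested.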
